A study of Chlamydomonas reinhardtii with 9 samples.

Results

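The genes described here are 92 of the 17893 genes counted in single cells of the green alga Chlamydomonas reinhardtii: 14 with more transcripts in strain CC-4532 than in strain CC-5390, and 78 with more in CC-5390, in cultures with iron and in cultures without it. They were selected on measured values. A gene was taken when its level in CPM (the unique molecular identifiers, or UMIs, of the gene summed over the cells of a library, per 1000000 UMIs of that library), computed with 0.5 added to each count, was at least 6-fold apart between the strains in the same direction in the Fe- pair and in the Fe+ pair of experiment 2, and when the higher library of each pair held at least 100 UMIs. Of 7455 genes with that many UMIs, 19 (0.255%) met the rule as higher in CC-4532 and 88 (1.18%) as higher in CC-5390. A further condition left out 15 genes that stand on the gene lists the study published, 1 of which could be read only in part, so some of the 92 may stand on the unread portion. Levels and folds below are given without the 0.5, and log2 ratios with it.

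Both strains were grown in acetate medium with 20 µM FeEDTA. The CC-4532 cultures, of a walled strain of mating type minus (CW mt-), were then moved for 23 h to medium without iron (Fe-, 1 library) or with 20 µM FeEDTA (Fe+, 1 library), both in experiment 2. The CC-5390 cultures, of a cell wall-deficient strain of mating type plus that carries an ARG7 transgene (cw15 arg7-8::ARG7 mt+), were moved to the same media in experiments 1 and 2 (Fe-, 2 libraries; Fe+, 2 libraries), and to medium without nitrogen in experiment 2 (N-, libraries R1 and R2, which are technical duplicates and were summed as 1 sample). A Mix library of experiment 1 held Fe- and Fe+ cells of CC-5390 in equal parts. With 1 library of CC-4532 per medium, each strain ratio below compares 2 libraries and carries no replicate error, and a culture, its cells and its library cannot be told apart from the strain.

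Laboratory strains of C. reinhardtii descend from a single field isolate, and at many places in the genome each strain carries either of a pair of divergent haplotypes. The mating-type locus, on chromosome 6, is a region of suppressed recombination in which the plus and minus forms differ in gene content and order. Reads of both strains were aligned to 1 reference genome, v5.5, which was assembled from a mating type plus strain. A 3′ UMI count of 0 therefore cannot tell apart a gene that a strain lacks, a gene whose transcript end differs too much in sequence to be aligned, and a gene that is not transcribed; which of these applies to any gene below was not tested. None of the 92 genes carries a symbol in the annotation used, so all are given by locus, and no role is stated for them. RefSeq, for the same v5.5 build, places 89 of them on a chromosome and 2 on unplaced sequence, and 1 is a chloroplast gene for which that table has no row.

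The libraries held between 2064 and 11798 cells and between 7576775 and 52436795 UMIs, with a median of 1388 to 5843 UMIs per cell. The strains differed in scale as well as in single genes: the median log2 ratio, CC-4532 over CC-5390, over the 7455 genes was -0.47 in the Fe- pair and -0.88 in the Fe+ pair. Totals were also scaled by edgeR's trimmed mean of M values (TMM), which moves these medians to 0.04 and -0.06. With the listed genes left out, 22 genes then met the rule as higher in CC-4532 and 47 as higher in CC-5390, in place of 14 and 78. All 14 of the genes higher in CC-4532 and 47 of the 78 higher in CC-5390 were among them, and no ratio of a named gene changed sign. Between 0.429% and 1.07% of a library's barcodes also occurred in another library of its experiment. Without the shared barcodes of experiment 2 the rule again gave 14 and 78 genes, 91 of them the same. The 7 cell wall glycoprotein genes that could be matched by symbol (PHC1, PHC5, PHC21, PHC28, VSP1, VSP3 and GAS28) were detected in every library, at a summed 746 CPM in the Fe- and 185 CPM in the Fe+ library of CC-4532, against 695 and 712 CPM in those of CC-5390 of experiment 2 and 501 to 3481 CPM in the other CC-5390 libraries. Their log2 strain ratios ran from -1.01 to 2.40 in the Fe- pair, short of 6-fold, and from -4.09 to -0.32 in the Fe+ pair. All 7 stand on the published lists that were left out, so they could not be members at any values. Genes of the mating types, and ARG7, could not be matched to a locus by symbol, so the strain labels were not checked against such markers.

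**Figure D1:**
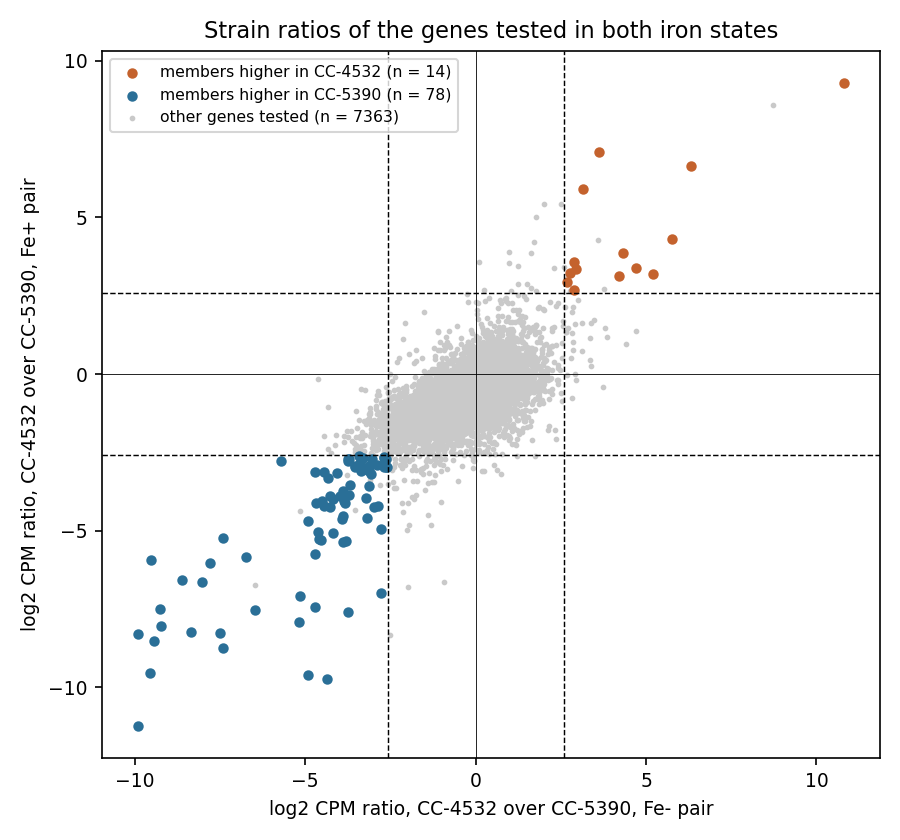
Each point is 1 of the 7455 genes tested; the x axis gives the log2 CPM ratio of CC-4532 over CC-5390 in the Fe- pair, the y axis that in the Fe+ pair, and the dashed lines mark 6-fold. The 14 members higher in CC-4532 lie in the upper right corner and the 78 members higher in CC-5390 in the lower left, where they reach a log2 ratio of -11.22, while the cloud of all genes is centred below 0.

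Among the genes higher in CC-4532, Cre16.g678900 stood apart because no UMI of it was found in CC-5390. It had 570 UMIs in the Fe- and 152 UMIs in the Fe+ library of CC-4532 (17.3 and 8.32 CPM), against 0 UMIs in all 7 CC-5390 libraries, where a floor of 3 counts corresponds to between 0.0572 and 0.396 CPM. Against the floor of the paired library, the excess in CC-4532 was at least 302-fold in the Fe- pair and at least 104-fold in the Fe+ pair. A UMI of it was found in 5.15% of the CC-4532 Fe- cells (exact binomial 95% interval 4.73 to 5.6) and in 4.55% of the Fe+ cells (3.84 to 5.35), so the count was not carried by a few cells. In CC-5390 it was found in 0 of 9291 Fe- cells and 0 of 11558 Fe+ cells of experiment 2, which, at 3 cells of the total, allows shares of cells with a UMI of up to 0.0323% and 0.026% at these depths. The median depth of those 4 libraries was 2906 and 5473 UMIs per cell in CC-4532 and 5843 and 2197 in CC-5390. Intervals and floors here and below cover counting error only.

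The other genes higher in CC-4532 were all detected in CC-5390. Cre10.g424750 had 228 and 170 UMIs in the CC-4532 Fe- and Fe+ libraries, against 4 and 3 UMIs in those of CC-5390 of experiment 2 and 1 to 5 UMIs in its other 5 libraries. The ratio was 90.5 in the Fe- pair (95% interval 34.8 to 335) and 117 in the Fe+ pair (39.3 to 572). Cre10.g463370, on the same chromosome, had 235 and 163 UMIs in CC-4532, against 30 and 2 UMIs in CC-5390 of experiment 2 and 3 to 10 in the others, so its ratio was 12.4 in the Fe- pair and 168 (45.7 to 1398) in the Fe+ pair. Every CC-5390 library lay below both CC-4532 libraries for these genes.

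Cre03.g198851 was among the more abundant, with 109 CPM in the Fe- and 17.2 CPM in the Fe+ library of CC-4532, against 1.98 and 0.851 CPM in CC-5390 of experiment 2 and 0.343 to 4.90 CPM in its other libraries. The ratio was 54.9 (45.2 to 67.4) in the Fe- pair and 20.3 (14.1 to 30.2) in the Fe+ pair. Cre07.g318350 had 13.5 and 8.76 CPM in CC-4532, against 0.0312 to 0.667 CPM in the 7 CC-5390 libraries. For Cre07.g325741 the CC-4532 levels were 55.4 and 37.8 CPM, against 1.91 to 11.8 CPM in CC-5390. Cre03.g209057 stood at 24.1 and 6.41 CPM in CC-4532 and between 0.648 and 1.85 CPM in CC-5390. Cre14.g620702 and Cre17.g719150 were nearer to the threshold, with 10.3 and 8.38 CPM and with 4.03 and 7.5 CPM in CC-4532, against up to 4.96 and up to 3.16 CPM in CC-5390.

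The most abundant of all 92 was the chloroplast gene CreCp.g007100, singled out here after its values were seen. It had 1690 CPM in the Fe- and 2674 CPM in the Fe+ library of CC-4532, against 229 and 412 CPM in those of CC-5390 of experiment 2, 171 and 211 CPM in N- R1 and R2, and 56.3 to 82.4 CPM in the 3 libraries of experiment 1. The ratio was 7.36 (7.22 to 7.51) in the Fe- pair and 6.49 (6.37 to 6.61) in the Fe+ pair. Of the 71 chloroplast genes tested, 25 were higher in CC-4532 in both pairs, CreCp.g007100 among them. The median log2 ratio over the 71 was -0.34 in the Fe- pair and -0.02 in the Fe+ pair. CreCp.g007100 had the highest ratio in each pair. Chloroplast genes made up 1.16% and 2.00% of the UMIs of the CC-4532 Fe- and Fe+ libraries, against 1.22% and 2.09% in CC-5390 of experiment 2. The libraries were primed on poly(A), so these shares do not give chloroplast RNA levels.

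Among the 78 genes higher in CC-5390, 3 had no UMI in either CC-4532 library (Cre06.g253051, Cre15.g641527 and Cre04.g215700), 23 had 1 to 10 UMIs over the 2 libraries, 43 had 11 to 100 and 9 had more. Cre05.g233304, on chromosome 5 from 349649 to 358069, had 1 and 0 UMIs in the CC-4532 Fe- and Fe+ libraries, against 2279 and 2451 UMIs in those of CC-5390 of experiment 2. It had 122 and 102 UMIs in N- R1 and R2, and 4152, 2651 and 2835 UMIs in the Fe-, Fe+ and Mix libraries of experiment 1. Every CC-5390 library lay above both CC-4532 libraries. The fold by which CC-5390 was higher was 1436 in the Fe- pair (257 to 56748) and at least 397 in the Fe+ pair. It was found in 1 of 10054 CC-4532 Fe- cells, against 16.9% (16.1 to 17.7) of the CC-5390 Fe- cells of experiment 2. At an equal depth of 1000 UMIs per cell the shares expected by subsampling were 0.005% in CC-4532 and 4.76% in CC-5390, with 385 and 1181 shallower cells left out.

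Cre16.g681200 gave 1 UMI in each CC-4532 library, against 1796 and 2302 UMIs in the Fe- and Fe+ libraries of CC-5390 of experiment 2, 714 and 1093 UMIs in N- R1 and R2, and 2206, 2736 and 2369 UMIs in the Fe-, Fe+ and Mix libraries of experiment 1. Its level in CC-5390 varied little beside the gap between the strains, from 34.3 to 119 CPM, against 0.0303 and 0.0547 CPM in CC-4532. CC-5390 was 1132-fold higher in the Fe- pair (203 to 44726) and 1118-fold higher in the Fe+ pair (200.4 to 44166). Cre17.g734757 was similar, with 2 UMIs in each CC-4532 library, against 26.7 to 54.6 CPM in the 7 CC-5390 libraries. Cre02.g120001 had 3 UMIs in each CC-4532 library, against 50.8 to 201 CPM in CC-5390, a fold of 706 in the Fe- pair (241 to 3423) and of 309 in the Fe+ pair (106 to 1502).

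Cre01.g013450 had 10 and 5 UMIs in the Fe- and Fe+ libraries of CC-4532 and between 54.5 and 326 CPM in those of CC-5390. A UMI of it was found in 0.0895% and 0.0976% of the CC-4532 cells, against 15.4% and 19.3% of the CC-5390 cells of experiment 2. The other genes with the largest ratios had lower levels in CC-5390. Cre14.g631600 had 0 and 2 UMIs in CC-4532, against 8.84 to 75.3 CPM in CC-5390. Cre02.g111900 had 0 and 2 UMIs in CC-4532 as well, against 5.87 to 30.9 CPM in CC-5390. Cre03.g208497 had 5 and 1 UMIs in CC-4532, against 8.13 to 85.1 CPM in CC-5390. Cre04.g215700, at 0 UMIs in CC-4532, had 2.75 to 15.7 CPM in CC-5390 and was at least 30.2-fold higher there in the Fe- pair and at least 51.6-fold in the Fe+ pair.

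**Figure D2:**
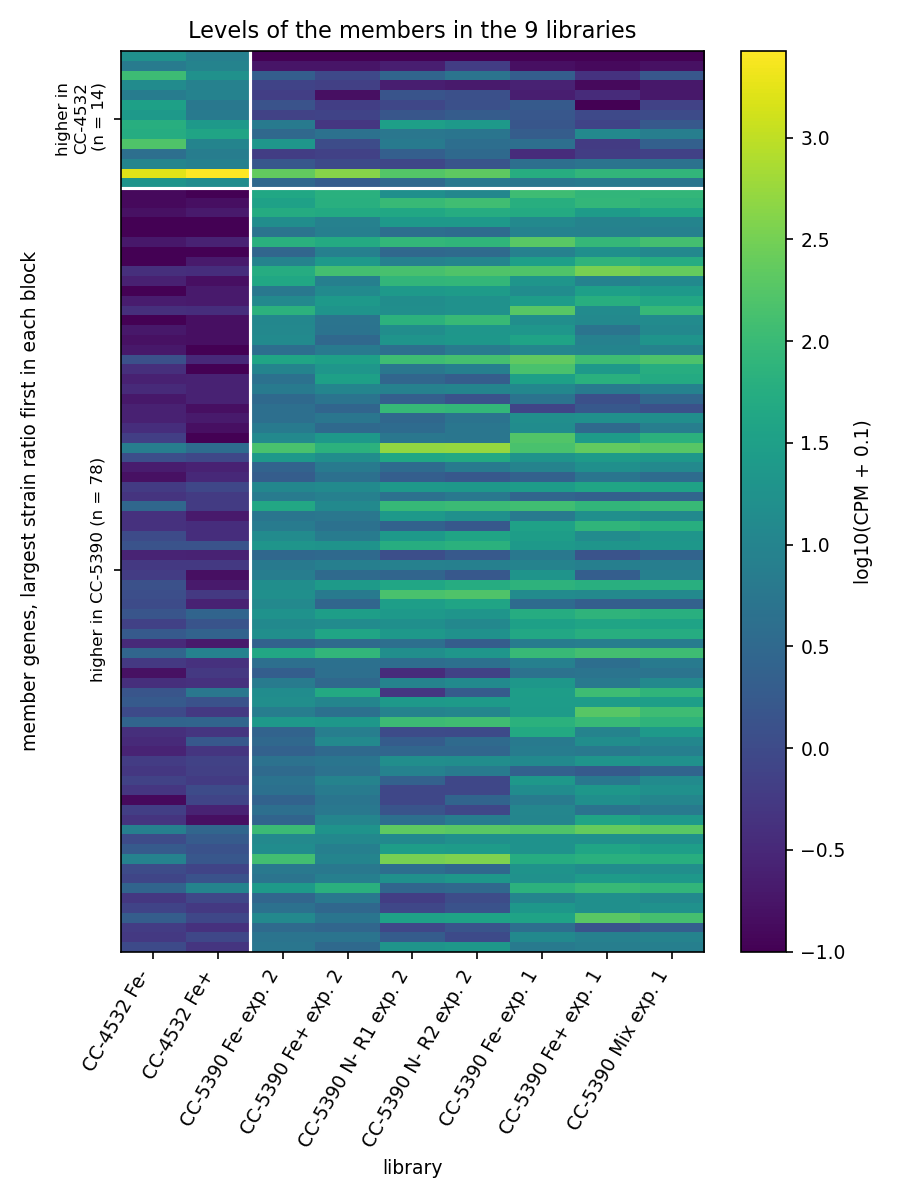
Each row is 1 of the 92 members and each column 1 of the 9 libraries, with CC-4532 left of the white line; colour gives log10(CPM + 0.1), and the rows are ordered within each block by the smaller of the 2 strain ratios. The median level of the 14 genes in the upper block was 21.6 and 9.12 CPM in the CC-4532 Fe- and Fe+ libraries, against 0.514 to 2.51 CPM in the CC-5390 libraries, and that of the 78 genes in the lower block was 0.409 and 0.328 CPM, against 7.44 to 18.9 CPM.

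In the strain with more transcripts, the 78 genes lay near the median of all genes and the 14 above it. The median over the 78 genes was 7.44 CPM in the Fe- and 8.09 CPM in the Fe+ library of CC-5390, against 8.31 and 7.15 CPM over all 7455 genes in the same libraries. The median over the 14 genes was 21.6 and 9.12 CPM in CC-4532, against 6.39 and 4.27 CPM over all genes. Members had to meet the UMI minimum of the rule in their higher strain, whereas the other genes tested could meet it in either strain. In the Fe+ library of CC-4532 that minimum alone put all 14 above the all-gene median, and the lowest of them had 5.91 CPM. The gap of the 14 to all genes therefore cannot be told apart from the selection. Gene length, which the rule did not use, had a median of 3656 bases in the 13 placed genes higher in CC-4532, of 4153 bases in the 78 higher in CC-5390 and of 4540 bases over the 7365 placed genes tested. The ratios of the Fe- and the Fe+ pair differed by a median of 0.76 on the log2 scale among the members and of 0.59 among all genes tested, and by over 2 in 14 members.

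At the threshold the rule separated genes with close values. The members nearest above it were Cre10.g428966, Cre05.g239750 and Cre07.g346550, whose smaller ratio of the 2 pairs was 2.61, 2.62 and 2.63 in absolute log2, all higher in CC-5390. The genes nearest below it were Cre16.g681400, Cre15.g641674 and Cre06.g261800, at 2.58, 2.58 and 2.57, also higher in CC-5390. These 3 members, and Cre06.g252000, Cre06.g252401, Cre06.g252600, Cre12.g530600, Cre15.g641600, Cre03.g209841 and Cre16.g678650 among those named below, no longer met the rule with TMM totals.

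Members lay near each other in several places. With at most 3 annotated genes between neighbours, 18 of the 89 placed members stood beside another member, and in each such case both were higher in CC-5390. So were 76 of the 89, and the share of all genes with a member this near is not given here. At wider gaps, members of both directions lay near each other on chromosomes 3 and 16. Chromosome 6 held 14 members among 687 genes tested (2.04%), chromosome 15 held 3 among 61 (4.92%), and all chromosomes together held 89 among 7313 (1.22%). On chromosome 6, 7 of the 14 lay between positions 395376 and 565860 (Cre06.g252000, Cre06.g252200, Cre06.g252350, Cre06.g252401, Cre06.g252600, Cre06.g252892 and Cre06.g253051). Of these, 4 met the rule with TMM totals. The boundaries of the mating-type locus are not in the files used here, so whether these genes lie inside it was not tested.

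Within this group, Cre06.g253051 had 0 UMIs in both CC-4532 libraries, against 766 and 325 UMIs in the Fe- and Fe+ libraries of CC-5390 of experiment 2, 190 and 217 UMIs in N- R1 and R2, and 452, 307 and 330 UMIs in the Fe-, Fe+ and Mix libraries of experiment 1. CC-5390 was at least 161-fold higher in the Fe- pair and at least 52.6-fold higher in the Fe+ pair. Cre06.g252200 had 4 and 2 UMIs in CC-4532, against 636 and 941 UMIs in CC-5390 of experiment 2, a fold of 100.2 (38.9 to 369) and of 228 (63.1 to 1889). The other 5 genes were 6.66-fold to 36.1-fold higher in CC-5390 over the 2 pairs. Cre06.g252892 had 3 UMIs in each CC-4532 library, against 169 and 185 UMIs in CC-5390. For Cre06.g252350 the counts were 34 and 14 UMIs in CC-4532, against 1196 and 553 UMIs in CC-5390.

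Genes between and beside these members were examined after the members' values were seen. Over the 30 annotated genes from position 382917 to 591278, 8 had 0 UMIs in both CC-4532 libraries and at least 10 UMIs over the 2 iron libraries of CC-5390 of experiment 2, against 127 of the 17466 genes on all chromosomes (0.727%). Besides Cre06.g253051 they were Cre06.g252250, Cre06.g252743, Cre06.g252750, Cre06.g252871, Cre06.g252913, Cre06.g253000 and Cre06.g253150. Cre06.g252743 had 0 and 0 UMIs in CC-4532, against 782 and 98 UMIs in CC-5390 of experiment 2, and Cre06.g253000 had 0 and 0, against 746 and 49 UMIs. Other genes of the stretch were counted in both strains, among them Cre06.g252650, with 294 and 618 UMIs in CC-4532, against 2669 and 3350 UMIs in CC-5390, so the genes at 0 did not form an unbroken run.

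**Figure D3:**
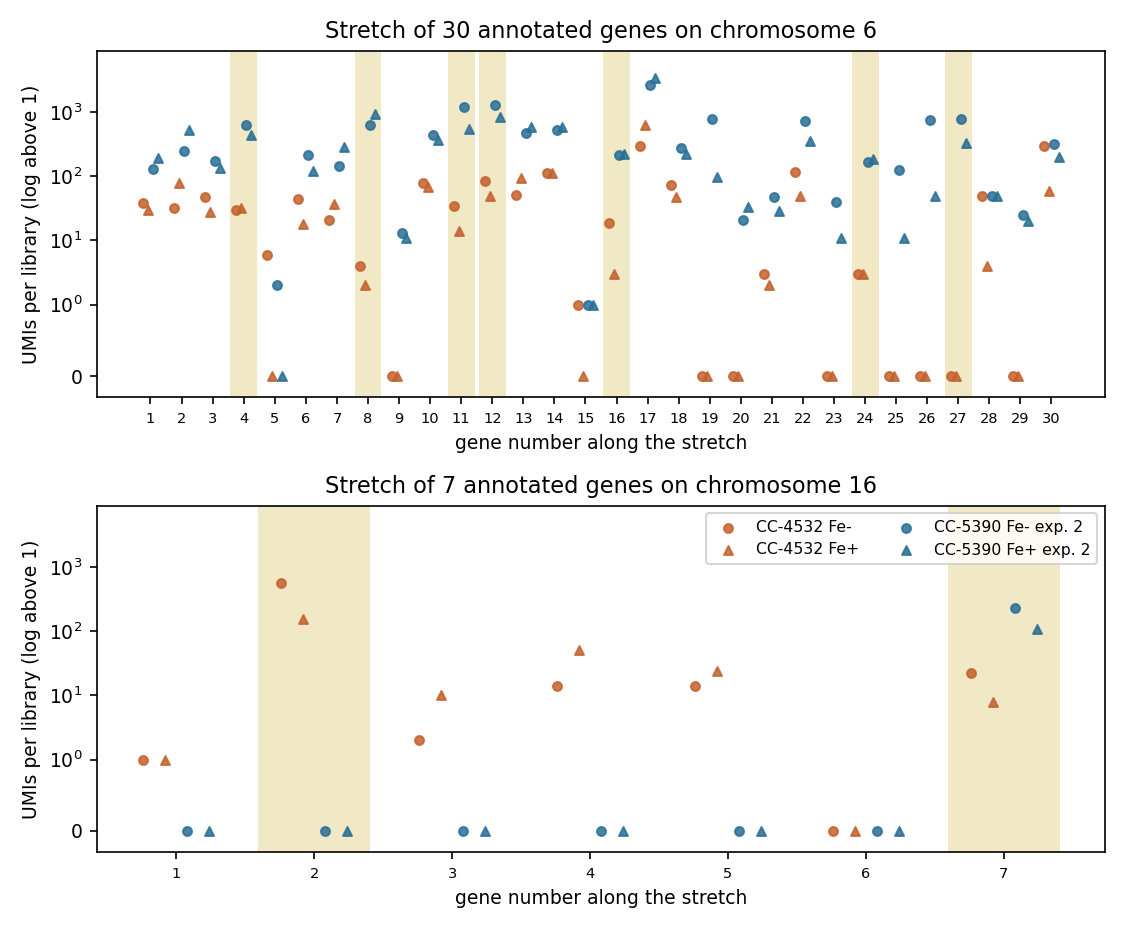
UMIs per gene (y axis, log scale above 1) in the 4 iron libraries of experiment 2 along 2 stretches of neighbouring annotated genes, numbered in order on the x axis; shaded columns are members. In the upper panel 8 of 30 genes lie at 0 in both CC-4532 libraries and have 10 UMIs or more over both CC-5390 libraries, and in the lower panel 4 of 7 genes lie at 0 in both CC-5390 libraries and have 10 UMIs or more over both CC-4532 libraries.

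On chromosome 16 the opposite arrangement was seen. Cre16.g678900, from 5723421 to 5727567, was followed by Cre16.g678850, Cre16.g678851 and Cre16.g678750, with 2 and 10, with 14 and 50, and with 14 and 24 UMIs in the Fe- and Fe+ libraries of CC-4532. All 4 had 0 UMIs in all 7 CC-5390 libraries. A looser count used only the iron libraries of experiment 2. There, 15 of the 17466 genes on chromosomes had 0 UMIs in both CC-5390 libraries and at least 10 over both CC-4532 libraries. Of these 15 genes, 5 were on chromosome 16. The next gene but 1, Cre16.g678650, was a member in the other direction, with 22 and 8 UMIs in CC-4532, against 231 and 109 UMIs in CC-5390 of experiment 2. Nearer the start of the chromosome, Cre16.g681200 lay beside the member Cre16.g681250, with 6 and 3 UMIs in CC-4532, against 151 and 120 UMIs in CC-5390. Beyond Cre16.g681200, Cre16.g681000 had 1 and 0 UMIs in CC-4532, against 154 and 73 UMIs in CC-5390, and Cre16.g681100 and Cre16.g681050 had none in CC-4532.

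The remaining neighbours came as pairs or as 3 genes. On chromosome 15 Cre15.g641400, Cre15.g641527 and Cre15.g641600 lay between 1214921 and 1260149. Cre15.g641527, whose gene model of 18322 bases was the longest among the members, had 0 UMIs in CC-4532, against 3.49 to 9.18 CPM in the 7 CC-5390 libraries. On chromosome 9, Cre09.g388353 and Cre09.g388355 adjoined each other and had nearly parallel levels. Cre09.g388353 had 0.303 and 0 CPM in the Fe- and Fe+ libraries of CC-4532, against 9.67 and 21.5 CPM in CC-5390 of experiment 2 and 145 and 25.2 CPM in CC-5390 of experiment 1. Cre09.g388355 had 0.575 and 0 CPM in CC-4532, against 12.1 and 23.2 CPM in experiment 2 and 169 and 26.3 CPM in experiment 1. On chromosome 12, Cre12.g549550 had the highest level of the 78 genes in the CC-5390 Fe- library of experiment 2, with 7.51 and 3.61 CPM in CC-4532, against 144 and 69.3 CPM in CC-5390 of experiment 2, and Cre12.g549600 beside it had 15 and 6 UMIs, against 215 and 158. On chromosome 1, Cre01.g013400 beside Cre01.g013450 had 45 and 47 UMIs in CC-4532, against 937 and 1141 UMIs in CC-5390.

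The libraries that the rule did not use gave a separate look at CC-5390. All 92 genes kept their direction when the CC-4532 libraries were set against the Fe- and Fe+ libraries of CC-5390 of experiment 1. For the 78 genes higher in CC-5390 this was also the direction of most genes tested, as the all-gene medians below show. Of the 14 genes higher in CC-4532, 11 were at least 6-fold higher in both pairs, where 0.807% of 8793 genes were, and of the 78 higher in CC-5390, 68 were at least 6-fold higher there, where 15.1% were. These shares of all genes follow the scale of the libraries, since the median log2 ratio of all genes was -1.55 in the Fe- and -1.87 in the Fe+ pair. With TMM totals 12 and 56 members passed, as did 183 and 153 of all genes. The CC-4532 libraries are the same ones that the rule used, and strain and experiment differ together in this comparison.

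The 3 genes higher in CC-4532 that fell short were Cre14.g620702, Cre04.g226350 and Cre07.g325741. Cre14.g620702 had 3.99 and 4.96 CPM in the Fe- and Fe+ libraries of CC-5390 of experiment 1, against 1.51 and 0.877 CPM in those of experiment 2, so its log2 strain ratio was 1.37 and 0.76 against experiment 1 and 2.76 and 3.24 within experiment 2. Among the genes higher in CC-5390, 10 did not pass, 9 of them with fewer than 100 UMIs in the higher library of a pair. In the 5 CC-5390 libraries outside the rule (N- and experiment 1), 13 of the 14 genes lay below both CC-4532 libraries, as 1.81% of all genes did, and 73 of the 78 lay above both, as 49.6% of all genes did. With each level divided by its library's median over all genes, 14 of 14 lay below, against 13.0% of all genes, and 62 of 78 above, against 13.8%. Both CC-4532 libraries in these counts are those in which the rule chose the members as high or low. The gap between the members and all genes therefore cannot be told apart from that selection.

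Single cells were classed only where they held at least 5 UMIs of the members (CreCp.g007100 left out). In CC-4532 these were 1146 of 10054 Fe- cells and 159 of 3075 Fe+ cells, so most cells were not classed. Of the classed cells, 22 and 24 had most of these UMIs from genes higher in CC-5390, and 12 and 3 were even. The other 1112 and 132 had most of them from genes higher in CC-4532. In CC-5390 this held for 8 of 5785 Fe- cells and 0 of 3539 Fe+ cells of experiment 2, for 0 of 1430 and 0 of 1251 cells of N- R1 and R2, and for 2 of 7918, 1 of 8946 and 0 of 8080 cells of the Fe-, Fe+ and Mix libraries of experiment 1. For the libraries of experiment 2 this restates the selection within cells and adds only how the counts were spread. In CC-4532, genes higher in CC-5390 gave a summed 70.4 and 67.3 CPM in the Fe- and Fe+ libraries, against 1411 and 1328 CPM in CC-5390 of experiment 2. Doublets were not called, and free RNA in the droplets was not estimated.

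**Figure D4:**
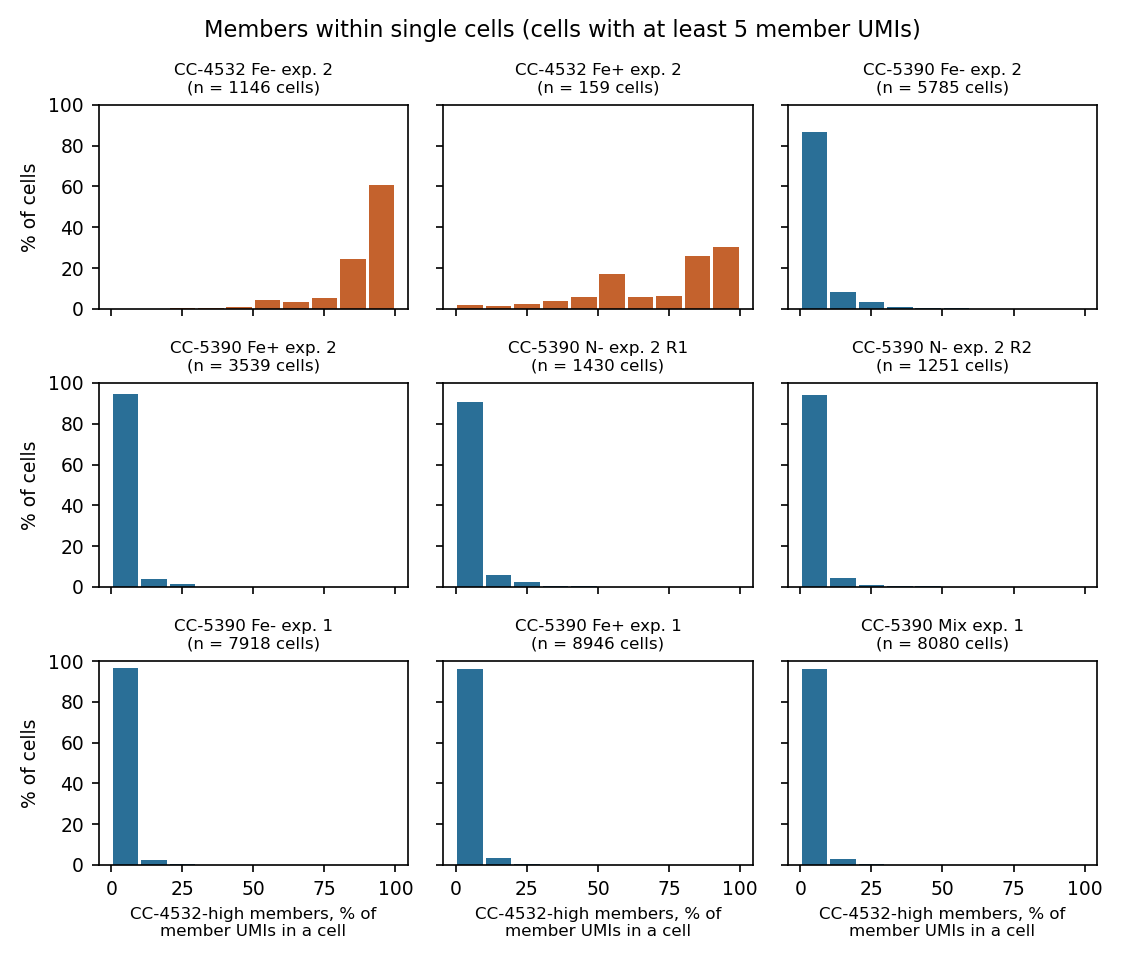
For cells with at least 5 UMIs of the members, the share of those UMIs that came from genes higher in CC-4532 (x axis, in 10 bins) and the percentage of cells in each bin (y axis), in the 9 libraries. In the CC-4532 libraries 1112 of 1146 Fe- cells and 132 of 159 Fe+ cells lie above 50%, and in the CC-5390 libraries between 0 and 8 cells do.

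The effect of iron on these genes was tested in CC-5390, which had libraries in both experiments. The Fe- and Fe+ libraries of CC-5390, 2 each, were compared with edgeR's quasi-likelihood test and Benjamini-Hochberg adjustment over 14588 genes, a contrast that did not choose the members, although the experiment 2 libraries took part in both. Of the 89 members tested, 0 were called at an adjusted p of 0.05, as were 0% of all genes, while 1777 of all genes, 17 of them members, stood below 0.05 before adjustment. With DESeq2, 4 members and 556 of all genes were called. With the experiment, the run number of the labels, as a block, 10 members were called, 6 higher and 4 lower in Fe- cells, against 8.18% of all genes.

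The 6 that rose in Fe- cells of CC-5390 in the fit with the block were Cre10.g456100, Cre01.g023300, Cre08.g361925, Cre08.g373372, Cre09.g396750 and Cre16.g663750. Cre10.g456100 had 20.9 CPM in Fe- and 0.957 CPM in Fe+ cells of experiment 2 and 3.99 CPM in Fe- and 0.499 CPM in Fe+ cells of experiment 1, a log2 fold change of 3.64 (edgeR with the block, adjusted p = 0.00061). In CC-4532 it had 161 CPM in the Fe- and 9.91 CPM in the Fe+ library, a log2 ratio of 4.02 where the median over all genes was 1.04, and its Fe+ library lay below the Fe- library of CC-5390 of experiment 2. Cre01.g023300, higher in CC-5390, had 70.8 CPM in Fe- and 19.5 CPM in Fe+ cells of experiment 2 and 192 and 13.3 CPM in those of experiment 1, a log2 fold change of 2.72 (edgeR with the block, adjusted p = 0.0047). It had 10 UMIs in the Fe- and 5 UMIs in the Fe+ library of CC-4532, too few for a ratio there.

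Cre08.g373372 and Cre08.g361925, both higher in CC-4532, had log2 fold changes of 2.42 and 2.56 in CC-5390 (edgeR with the block, adjusted p = 0.025 and 0.048). Cre08.g373372 stood at 6.58 CPM in Fe- and 0.399 CPM in Fe+ cells of experiment 2 and at 1.40 and 0.686 CPM in experiment 1. Cre08.g361925 was at 0 UMIs in the Fe+ library of experiment 1, against 62 UMIs in Fe-, and its fitted change depends on the prior count. In CC-4532 the log2 ratios were 1.24 for Cre08.g373372 and 2.49 for Cre08.g361925. The 4 that fell in Fe- cells were Cre12.g530600, Cre15.g641600, Cre03.g209841 and Cre06.g270500, with log2 fold changes of -2.09, -1.77, -1.99 and -2.10 (edgeR with the block, adjusted p between 0.016 and 0.033). Cre03.g209841 had 14.3 CPM in Fe- and 48.1 CPM in Fe+ cells of experiment 2, 29.5 and 115 CPM in those of experiment 1, and 1.36 CPM in Fe- and 5.64 CPM in Fe+ cells of CC-4532.

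**Figure D5:**
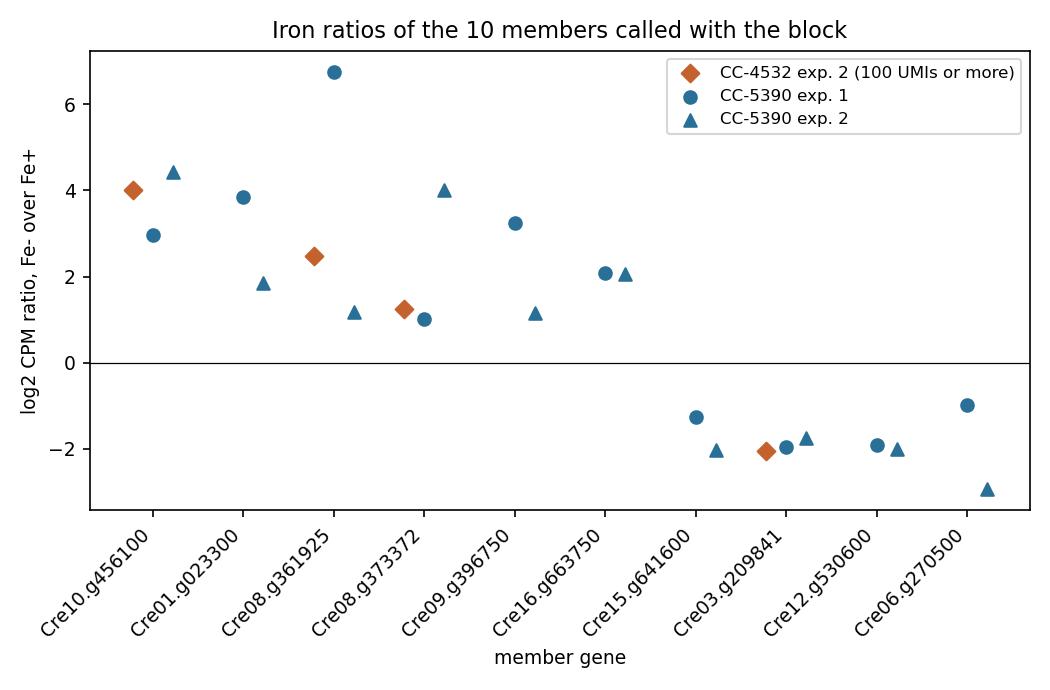
The y axis gives the log2 CPM ratio of Fe- over Fe+ for the 10 members called in the fit with the block (x axis), in CC-4532 where the higher library held 100 UMIs (diamonds) and in CC-5390 in experiments 1 (circles) and 2 (triangles). The genes were chosen by the fit over the same CC-5390 libraries, so their signs there are a description; the 4 CC-4532 values run from -2.04 to 4.02, where the median of all genes was 1.04, and the value of 6.75 for Cre08.g361925 rests on 0 UMIs in Fe+.

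In CC-4532 itself, 20 members had at least 100 UMIs in the higher of the Fe- and Fe+ libraries. Of the 14 genes higher in CC-4532, 6 were at least 2-fold higher in Fe- cells, where 51.0% of 6417 genes were, and 0 were at least 2-fold lower, where 9.60% were. Their median log2 ratio was 0.59, against 1.04 over all genes. The rule used both of these libraries and required at least 100 UMIs of the 14 genes in each. The 6417 genes needed that many only in the higher library. The gap of the members to all genes therefore cannot be told apart from the selection. Of the 6 genes higher in CC-5390 with enough UMIs, 3 were past 2-fold in each direction. With TMM totals the 20 members split into 6 higher and 5 lower in Fe- cells, in place of 9 and 3, and all genes into 2648 and 856. There is 1 library per medium, so no test was made.

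Nitrogen starvation was compared as 1 sample against 1, with no test. Over N- R1 and R2 summed against Fe+ of CC-5390 in experiment 2, 27 of the 78 genes higher in CC-5390 were at least 2-fold higher in N- cells, where 54.1% of 9475 genes were, and 25 were at least 2-fold lower, where 15.4% were. Their median log2 ratio was -0.11, against 1.24 over all genes. The Fe+ library of this comparison is one in which the rule chose the 78 genes as high. Their gap to all genes therefore cannot be told apart from that selection. With TMM totals 15 of the 81 members with enough UMIs were higher and 42 lower, in place of 28 and 26, as were 3428 and 2743 of all genes. At the high end Cre15.g641400 had 142 and 162 CPM in N- R1 and R2, against 6.22 CPM in Fe+ cells, and Cre08.g373372 had 31.7 and 23.9 CPM, against 0.399 CPM. Of the 14 genes higher in CC-4532, Cre08.g373372 was the one whose CC-4532 libraries did not both lie above all CC-5390 libraries outside the rule. On levels over the library median they did. At the low end Cre03.g209841 had 0.396 and 1.74 CPM, against 48.1 CPM, so its N- libraries overlapped the CC-4532 libraries, at 1.36 and 5.64 CPM. Cre12.g549550 had 517 and 531 CPM in N- cells, against 69.3 CPM in Fe+ cells, so its level differed within CC-5390 while both CC-4532 libraries stayed below all 7 others.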

How the data were processed

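Counts of UMIs per gene and cell barcode were deposited by the authors for 9 Chromium 3′ libraries (kit v3 per the labels, whereas the study's discussion names v2). According to the study's methods, reads were aligned to genome v5.5 and counted with cellranger count. All 9 files hold more barcodes than the cell numbers the study gives, and its filter (100 genes, 300 UMIs) left 10049 and 3056 barcodes in the Fe- and Fe+ libraries of CC-4532 and all barcodes elsewhere, so which cells it used is not known here. Here counts were summed per gene and library over all deposited cells and expressed as CPM. The members and gene lists were chosen with earlier results of these data known. Named genes were fixed by a rule: the 12 largest ratios in each direction, members within 3 genes of another, members called for iron under either fit, and the 3 genes on each side of the threshold. Genes outside it (CreCp.g007100, Cre04.g226350, Cre16.g678650 and non-members of the chromosome stretches) were chosen after their values were seen. Fe- and Fe+ were compared in CC-5390 with edgeR 4.0.16 (R 4.3.3; filterByExpr, TMM), after a check on data drawn with known changes. Same-experiment libraries deviated together (correlation 0.501 over 14588 genes), and the labels give the experiment as a run, so it was also fitted as a block. The methods describe 1 culture split into Fe- and Fe+ for experiment 1, and separate flasks for experiment 2. The Fe- and Fe+ libraries of CC-5390 that were tested are 1 culture each. Without the block, p-values measure the spread between the experiments within each medium. With the block, they measure what remains after the experiment is fitted. Strain ratios have exact conditional 95% intervals. Shares at 1000 UMIs per cell are hypergeometric expectations. RefSeq gave positions for 17738 genes. Tables and figures were made with Python 3.11.15, scipy 1.17.1 and matplotlib 3.10.9, and DESeq2 1.42.0 was an alternative.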

Additional observations from a re-analysis of the deposited data

How the results depend on the processing

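The rule gave 210 genes at 4-fold, 50 at 10-fold, 51 with a minimum of 200 UMIs, 200 from the Fe+ pair alone and 382 from the Fe- pair alone, against 92. It gave 90 with a pseudocount of 1, 129 with a minimum of 50 UMIs, 107 with no list left out, and 69 under TMM or DESeq2 scaling, where 61 and 60 of the 92 were among them. The iron test in CC-5390 depended most on the fit. With the replicate block (the experiment) it called 10 members and 1194 of all genes, with DESeq2 4 and 556, and without a filter on low counts 0 and 48, against 0 and 0 with edgeR. Leaving out each library gave 0 to 4 members and 11 to 364 of all genes: 2 members and 184 genes without Fe- replicate 1, 0 and 77 without Fe+ replicate 1, 0 and 11 without Fe- replicate 2, and 4 and 364 without Fe+ replicate 2. The lone library of an arm was then assumed to vary like the other arm. Leaving out an N- duplicate gave 53 or 54 members past 2-fold, against 54. Of 92 ratios of named members, 28 moved out of their counting interval under TMM, and none with a pseudocount of 1 or with the study's cell filter. No direction turned in these runs. The cause of these differences was not tested. Depth limits the lower strain: most counts there were under 100 UMIs, and 0 cannot be read as absence.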
